A study of Rattus norvegicus with 6 samples.

Results

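The plasma membrane calcium ATPases (PMCAs) are the pumps that expel calcium from cells across the outer membrane. The rat genome encodes them in 4 genes, Atp2b1, Atp2b2, Atp2b3 and Atp2b4, and their transcripts were followed in the vestibular sensory epithelium of rats exposed to streptomycin. The genes were taken by symbol, as a whole family, and all 4 were found among the 32883 genes of the deposited table. Earlier results of these data were known when the family was chosen. Atp2b2 is among the genes that the study picked out as lower in these and other samples. RNA was sequenced from 6 Long-Evans rats. The 3 STREP rats received streptomycin, an aminoglycoside antibiotic that damages the sensory hair cells (HCs) of the inner ear, by daily subcutaneous injection at 500 mg/kg in phosphate-buffered saline (PBS) for 6 weeks from postnatal day 21. The 3 Control rats received PBS. Each group held 2 males and 1 female, and each library came from 2 utricles and 6 cristae pooled from 1 animal, so that HCs, supporting cells, nerve fibres and other cells of the tissue were sequenced together. Replicates 1 and 2 of each group were males and replicate 3 was the female.

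Calcium enters vestibular HCs through the mechanotransduction channels at the tips of the stereocilia and through voltage-gated channels near the synapse. The PMCAs use the energy of ATP to return it to the extracellular fluid, are activated by calmodulin, and are held in the membrane by a small glycoprotein subunit, neuroplastin or basigin. PMCA2, the product of Atp2b2, is the pump of the stereocilia, where it exports calcium into the endolymph, and loss of Atp2b2 causes deafness and imbalance in mice. PMCA1, from Atp2b1, is found in most cell types and lies in the basolateral membrane of HCs. PMCA3, from Atp2b3, is mainly a neuronal pump, and PMCA4, from Atp2b4, is widely expressed.

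Library totals ran from 48568191 to 59906048 counts in Control and from 29333584 to 33744909 in STREP animals, so depth was lower in every STREP library. Counts were therefore divided by a size factor per library and are given as normalised counts. Genes are described as called where DESeq2 gave an adjusted p-value (Benjamini-Hochberg) under 0.05 together with a change of over 1.5-fold either way. By this rule 223 of 16250 tested genes (1.37%) were called lower and 304 (1.87%) higher, 3.24% in all. The median log2 fold change over all tested genes was 0.0069, and 49.0% of them were below 0. The 11 genes used as markers of all HCs were detected in both groups, with summed levels of 80161 to 87078 normalised counts in Control and 70344 to 83141 in STREP animals.

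To show the start regions of the gene that changed and of its relative that was read most deeply, the promoter windows of Atp2b2 and Atp2b1 are printed from RefSeq (build GRCr8), from 250 bases before to 50 bases after the annotated start. RefSeq windows matched 3 of the 4 genes, Atp2b1, Atp2b2 and Atp2b4. The Atp2b2 window lies at chr4:148763604-148763903 on the minus strand and that of Atp2b1 at chr7:35622211-35622510 on the plus strand. Capitals mark GC boxes (GGGCGG on either strand, with overlaps counted).
Atp2b2: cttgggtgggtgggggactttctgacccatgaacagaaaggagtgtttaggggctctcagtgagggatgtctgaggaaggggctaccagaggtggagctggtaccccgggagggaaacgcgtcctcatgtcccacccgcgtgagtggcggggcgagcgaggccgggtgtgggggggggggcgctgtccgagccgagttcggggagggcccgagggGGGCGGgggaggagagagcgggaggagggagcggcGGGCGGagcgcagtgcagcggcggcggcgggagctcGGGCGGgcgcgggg
Atp2b1: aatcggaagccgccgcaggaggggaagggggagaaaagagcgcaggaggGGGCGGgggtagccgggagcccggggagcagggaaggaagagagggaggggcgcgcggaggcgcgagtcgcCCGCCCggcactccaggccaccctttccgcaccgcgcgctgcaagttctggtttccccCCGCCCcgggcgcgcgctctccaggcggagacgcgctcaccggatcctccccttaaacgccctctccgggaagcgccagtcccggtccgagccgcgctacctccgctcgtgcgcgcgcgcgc
Both windows held 3 GC boxes, a motif present in 33.1% of the 33469 promoter windows of this length. They had a similar base composition, with 72.3% G and C for Atp2b2 and 74.3% for Atp2b1, against a median of 51.7%. The Atp2b4 window was at 44.7% and held 0 GC boxes. None of these 3 windows held an E-box (CANNTG, in 72.1% of all windows), a TATA box (TATAAA, in 14.2%) or the composite element read by ATF4 and C/EBP factors (TGATGNAAT, in 1.09%), on either strand. The table lists 1 start per gene, and which start was used in these animals was not measured.

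Atp2b2 (ENSRNOG00000030269), the stereociliary pump, fell in STREP animals. The Control males had 3850 and 3778 normalised counts and the Control female 4266, against 1791 and 2382 in the STREP males and 2057 in the STREP female. The groups did not overlap, as for 17.8% of all tested genes (8.63% with STREP lower), and every STREP value lay well below the lowest Control value. The mean went from 3965 ± 264 to 2076 ± 296 (SD, n = 3), so that the level fell by 47.6%. On the log2 scale the change was -0.93 with an SE of 0.15 (DESeq2 adjusted p = 3.21e-07). The 95% interval of the log2 fold change ran from -1.24 to -0.63. Atp2b2 was called lower in each of the 6 fits that left out 1 animal and in 7 of 8 other settings. The exception was a DESeq2 test of whether the fold change itself exceeds 1.5 (unadjusted p = 0.0244, adjusted p = 1). With edgeR, which called 1.77% of the genes it tested, Atp2b2 was again at -0.93 (adjusted p = 0.00700). In bulk tissue, fewer HCs and less RNA per HC cannot be told apart from these counts. In the same exposure model, the study found mean HC counts lower without significance. It also reported less PMCA2 protein label in the stereocilia of the utricle.

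**Figure D1:**
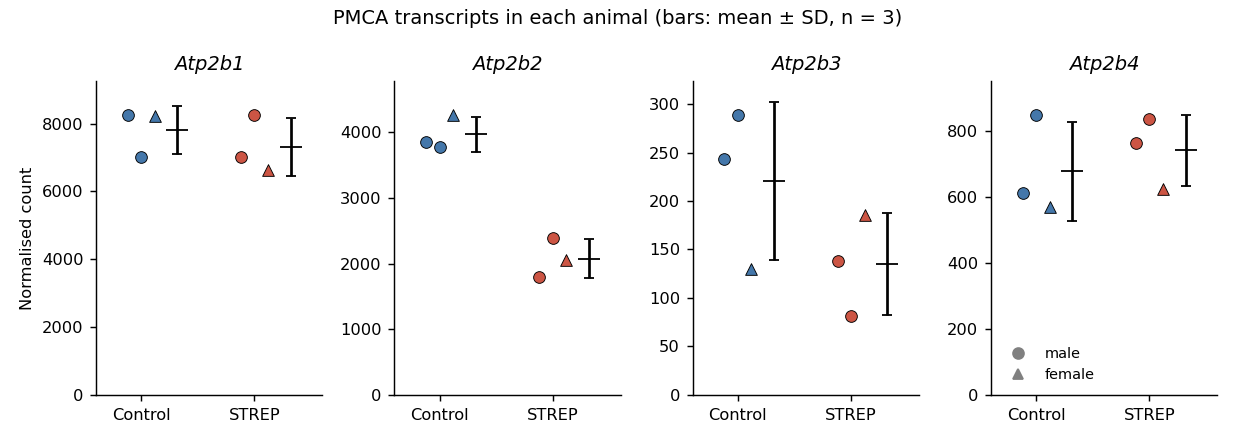
Normalised count (vertical axes, each from 0) of each PMCA gene in the 3 Control and 3 STREP animals, with circles for males, triangles for females and bars for the mean ± SD of each group. Only for Atp2b2 do all 3 STREP animals, at 1791 to 2382, lie below all 3 Control animals, at 3778 to 4266.

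Atp2b1 (ENSRNOG00000004026), the basolateral pump, was not called. The Control males had 8241 and 6999 normalised counts and the Control female 8213, against 7019 and 8261 in the STREP males and 6624 in the STREP female. The groups overlapped, and the highest value of all was that of a STREP male. The means were 7818 ± 709 and 7301 ± 854 (SD, n = 3), and the log2 difference was -0.10 with an SE of 0.14 (DESeq2 adjusted p = 0.908). The 95% interval, from -0.38 to 0.18, did not reach a fold change of 1.5, and among males alone the log2 fold change was 0.0024.

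Atp2b4 (ENSRNOG00000003031), the widely expressed PMCA4, was not called either. Its normalised counts were 612, 848 and 568 in the Control and 763, 835 and 624 in the STREP replicates 1, 2 and 3. All STREP values lay within the span of the Control values. The log2 difference was 0.13 with an SE of 0.22 (DESeq2 adjusted p = 0.927) and a 95% interval from -0.31 to 0.57.

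Atp2b3 (ENSRNOG00000061304), the neuronal PMCA3, had few reads and varied most between animals. Raw counts were between 75 and 396 in the 6 libraries. The Control males had 243 and 289 normalised counts and the Control female 130, against 138 and 81.0 in the STREP males and 185 in the STREP female. The groups overlapped because the Control female lay below a STREP male and the STREP female. The means were 221 ± 81.9 and 135 ± 52.3 (SD, n = 3), with a coefficient of variation of 37.1% in Control and 38.8% in STREP animals, against 6.65% and 14.3% for Atp2b2. The log2 difference of -0.71, with an SE of 0.42, did not pass the test (DESeq2 adjusted p = 0.520), and its 95% interval, from -1.53 to 0.10, includes both no change and a fall larger than that of Atp2b2.

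The 2 sexes were next considered apart, since Atp2b3 moved in opposite directions in them. Both STREP males (138 and 81.0) lay below both Control males (243 and 289), and among males alone, where 2.65% of tested genes were called, the log2 difference was -1.28 with an SE of 0.47 (DESeq2 unadjusted p = 0.00593, adjusted p = 0.138). The STREP female (185) lay above the Control female (130), a log2 ratio of 0.51 in 1 pair of animals. The interaction of sex and group did not pass the test for Atp2b3 (female minus male log2 fold change 1.80 ± 0.84, unadjusted p = 0.0334, DESeq2 adjusted p = 0.866), where 0.259% of genes passed after adjustment and 4.52% had an unadjusted p-value under 0.05. With 1 female per group, sex and the individual animal cannot be told apart. Atp2b2 was lower in both sexes, at -0.87 on the log2 scale among males (SE 0.19, DESeq2 adjusted p = 0.000656) and -1.05 for the female pair (interaction -0.18, adjusted p = 0.999).

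**Figure D2:**
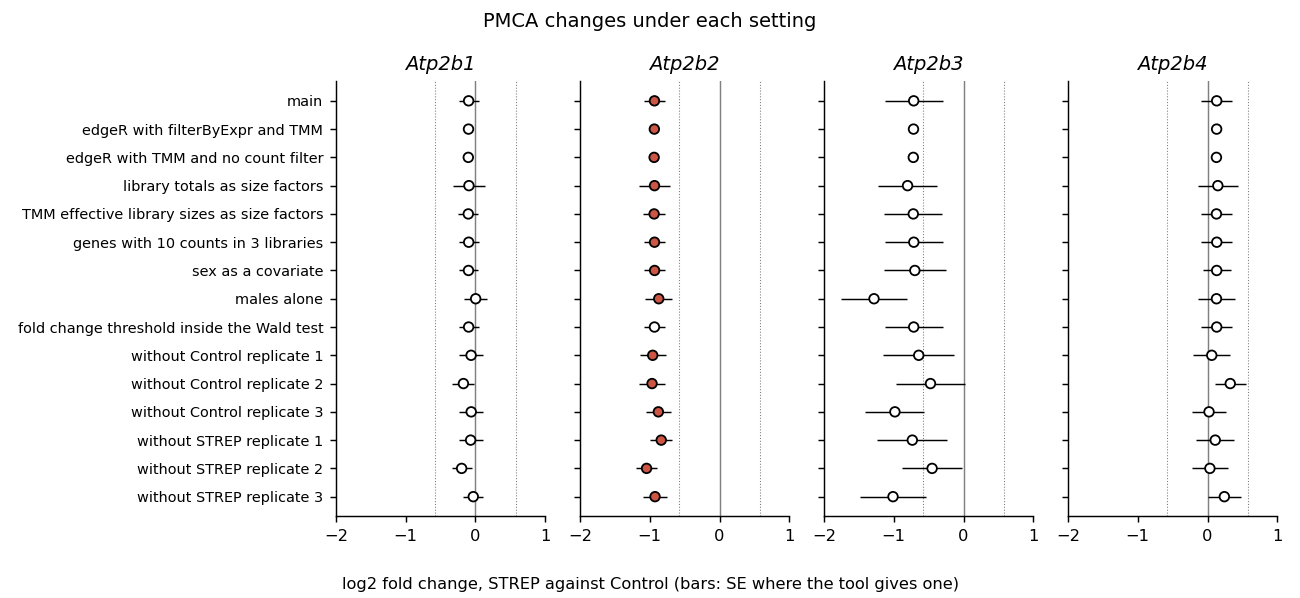
log2 fold change of STREP against Control (horizontal axes) for each PMCA gene in the reported fit (top row), 8 other settings and 6 fits without 1 animal, with bars for the SE where the tool gives one, filled points where the gene was called, and dotted lines at a fold change of 1.5. Atp2b2 stays between -1.05 and -0.84 in all fits, while Atp2b3 spreads from -1.28 to -0.45 and is called in none.

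Taken over the family, the reads of the 4 genes summed to 12947, 11914 and 13178 normalised counts in Control and 9711, 11558 and 9490 in STREP replicates 1, 2 and 3. The sums did not overlap, and the STREP mean was 0.809 of the Control mean. Atp2b2 made up 29.7, 31.7 and 32.4% of these reads in Control and 18.4, 20.6 and 21.7% in STREP replicates. The share of Atp2b1 was 58.7 to 63.7% in Control and 69.8 to 72.3% in STREP animals, and that of Atp2b4 went from 5.39 ± 1.51% to 7.22 ± 0.64% (SD, n = 3) with overlap. The share of Atp2b3 stayed between 0.701 and 2.43% in every library. Because reads were not corrected for transcript length, these shares compare libraries and do not rank the pumps by number of molecules.

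**Figure D3:**
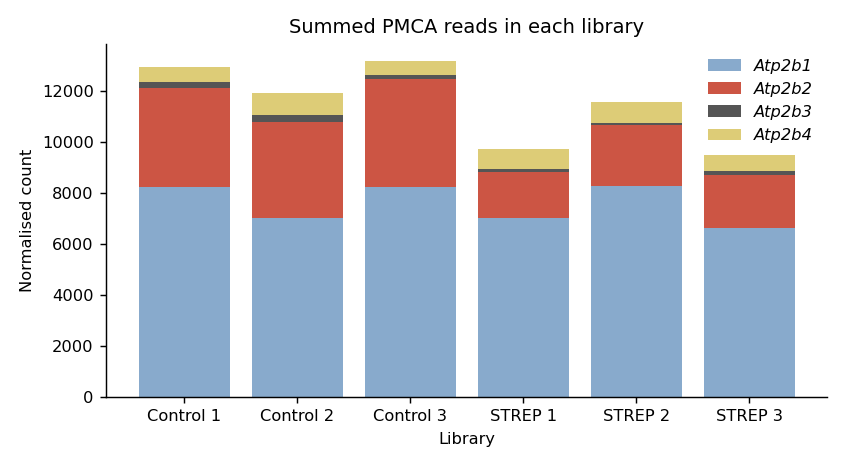
Summed normalised count (vertical axis, from 0) of the 4 PMCA genes in each library, stacked by gene. The Atp2b2 layer narrows from about 29.7 to 32.4% of the sum in Control to 18.4 to 21.7% in STREP libraries.

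Whether Atp2b2 changed relative to its relatives was asked within each library, as the log2 ratio of normalised counts (with 1 added to each). The ratio of Atp2b2 to Atp2b1 was -1.10, -0.89 and -0.94 in Control and -1.97, -1.79 and -1.69 in STREP replicates 1, 2 and 3. This ratio shows no overlap and a difference in means of -0.84 (exact two-sided permutation p = 0.1, the smallest that 3 against 3 animals can give, and adjusted p = 0.133 over 4 ratios). The ratio to Atp2b4 was lower by 1.08 on average (difference -1.08, exact permutation p = 0.1, adjusted p = 0.133), again without overlap. The ratio to Atp2b3 overlapped, with a mean of 4.24 ± 0.70 for Control, 4.0 ± 0.75 for STREP (SD, n = 3, exact permutation p = 0.5), and its difference of -0.23 became 0.43 among males alone. A difference between the changes of Atp2b2 and Atp2b3 was thus not shown.

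As a gene of all HCs, the motor protein gene Myo7a was used as the fourth reference. The ratio of Atp2b2 to Myo7a was -0.51, -0.31 and -0.09 in Control and -0.91, -0.66 and -0.69 in STREP replicates 1, 2 and 3. All STREP ratios lay below all Control ratios, with a difference in means of -0.45 (exact two-sided permutation p = 0.1, adjusted p = 0.133 over 4 ratios). Myo7a itself was at -0.49 (DESeq2 adjusted p = 0.0162), short of the 1.5-fold limit.

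The subunits and partners of the pumps mostly did not move with Atp2b2. Of the 13 genes listed, 11 were found in the table, Calm2 in 2 rows. Among the 12 rows tested, 1 was called lower and 1 higher, beside 1.37% and 1.87% of all tested genes. The median log2 fold change was -0.03. Slc9a3r2, the PDZ scaffold NHERF2 that binds the tail of PMCA2, went from 8729 ± 902 to 5679 ± 794 normalised counts (SD, n = 3; log2 fold change -0.62, DESeq2 adjusted p = 0.00282). This call was lost with edgeR (-0.62, adjusted p = 0.0642) and without Control replicate 3 or STREP replicate 1 (-0.54 in both). Among the genes read most deeply, the more deeply read row of Calm2, a calmodulin gene, was at -0.45 and Bsg, which encodes basigin, at -0.03, neither called. That row of Calm2 was called lower among males alone (-0.82) and without STREP replicate 3 (-0.87). Nptn, which encodes neuroplastin and was chosen for mention after its values were seen, was at -0.03 (DESeq2 adjusted p = 0.987). Calmodulin genes encode the same protein from related sequences, and how far reads were shared among them was not tested.

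Among the intracellular calcium pumps, Atp2a3 fell. This gene encodes SERCA3, a pump that loads calcium into the endoplasmic reticulum, and despite its like symbol it is not a PMCA. The Control males had 9477 and 8958 normalised counts and the Control female 10522, against 4549 and 3491 in the STREP males and 4127 in the STREP female. All STREP values lay below the Control values, and the log2 difference was -1.25 with an SE of 0.15 (DESeq2 adjusted p = 2.15e-14), a fall by 58.0%. It was called in each of the 8 other settings and in each of the 6 fits without 1 animal. Atp2a2, the SERCA2 pump found in most cells, was at -0.11 and Atp2c1, the calcium pump of the Golgi, at -0.25, neither called. Of the 7 genes in this list, 6 were tested, with 1 called lower, 0 higher and a median of -0.42. Over all tested genes, 1.37% were called lower and 1.87% higher.

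The sodium-calcium exchangers, which export calcium with the sodium gradient, had fewer reads. Of 9 genes tested, 1 was called lower and 0 higher, beside 1.37% and 1.87% of all tested genes. The median log2 fold change was -0.54. Slc24a1 went from 75.7 ± 18.9 to 20.3 ± 6.45 normalised counts (SD, n = 3; log2 fold change -1.91, DESeq2 adjusted p = 0.0233). Its call was lost with edgeR (-1.91, adjusted p = 0.133), among males alone (-2.13) and without Control replicate 1 or 3 or STREP replicate 1 or 2 (-1.90 to -1.70). The mitochondrial exchanger Slc8b1 was at -0.10, Slc8a2 at -0.58 and Slc24a5, which belongs to pigment granules, at 0.44, none of them called.

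Of the 18 genes for calcium stores and mitochondrial uptake, 0 were called lower and 1 higher, beside 1.37% and 1.87% of all tested genes. Their median was -0.03. Stim2, a calcium sensor of the endoplasmic reticulum, rose from 1323 ± 237 to 2427 ± 206 normalised counts (SD, n = 3; log2 fold change 0.88, DESeq2 adjusted p = 6.45e-05). It lost its call only in the test of whether the fold change itself exceeds 1.5 (DESeq2 adjusted p = 1). Its relative Stim1 was at -0.03 and the ryanodine receptor Ryr3 at -0.39, neither called.

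Of the 12 genes tested for calcium entry into HCs, 4 were called lower and 0 higher, beside 1.37% and 1.87% of all tested genes. A negative log2 fold change was found for 11 of them, beside 49.0% of all tested genes, and the median was -0.59. Tmc2, a mechanotransduction channel subunit, fell most (-1.71, DESeq2 adjusted p = 9.98e-09). Cabp2, a modulator of the synaptic calcium channel, was at -0.89, Cacna1d, the pore of that channel, at -0.80, and Cib2, a partner of the transduction channel, at -0.59. Cabp2 was just short of a call with edgeR (-0.89, adjusted p = 0.0501), and Cacna1d lost its call with library totals as size factors (-0.77, DESeq2 adjusted p = 0.135). Cib2 lost its call with edgeR (-0.59, adjusted p = 0.0606), among males alone (-0.60) and without Control replicate 1 or STREP replicate 1 or 3 (-0.56 to -0.51). Lhfpl5, also of the transduction complex, was at -0.45 (DESeq2 adjusted p = 0.0161), short of the 1.5-fold limit.

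Of the cytosolic calcium buffers, 2 of the 6 tested were called lower and 0 higher, beside 1.37% and 1.87% of all tested genes. Their log2 fold changes ran from -2.03 to 0.42, with a median of -0.83. Oncomodulin, listed as Ocm2, was at -1.44 and parvalbumin, Pvalb, at -1.44, whereas S100a1 (-0.22) and S100b (-0.04) were not called. Ocm2 and Pvalb are both on the study's own lists of genes lower in these samples, so their direction is not an independent result. S100g had 0 counts in every library.

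The other P-type pumps share the reaction cycle of the PMCAs but carry other ions or lipids. For the sodium-potassium pump, 0 of 8 subunit genes were called in either direction (the median was 0.02), with Atp1b3 at 0.10 and Atp1b2 at -0.36. Of 17 other P-type ATPases tested, 0 were called, with a median of 0.06 and with Atp11a at -0.11, Atp13a2 at 0.02 and Atp13a1 at -0.26. Atp10a, a lipid flippase, was the only one of them to pass the adjusted p-value (0.52, DESeq2 adjusted p = 0.0233). It stayed under 1.5-fold, but was called among males alone (0.63) and without STREP replicate 3 (0.62). Atp4a and Atp12a had 0 counts in every library. These counts stand beside 3.24% called over all genes.

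**Figure D4:**
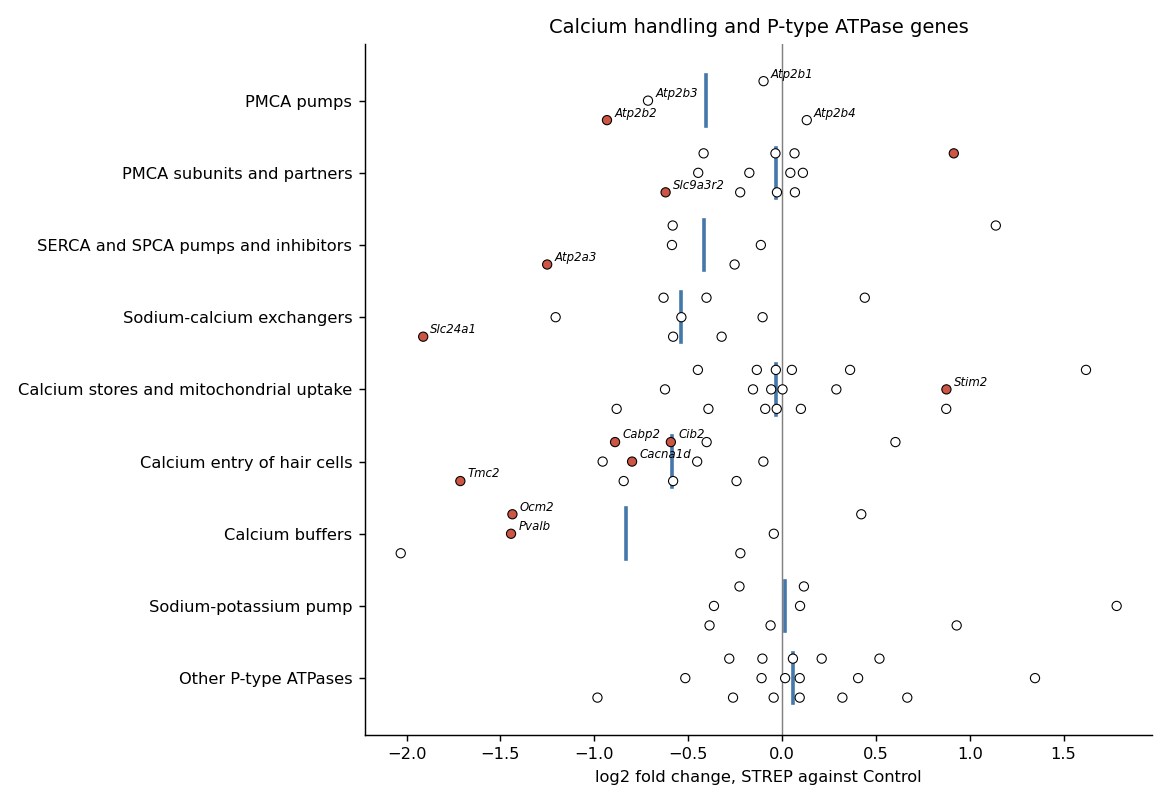
log2 fold change of STREP against Control (horizontal axis) for every tested gene of 9 lists, with points filled where the gene was called, names on the called genes described in the text and on the 4 PMCA genes, and a vertical bar at each list's median. Atp2b2, at -0.93, and Atp2a3, at -1.25, are the only called pumps.

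Genes with the profile most like that of each pump were sought among 12131 genes with a mean of at least 100 normalised counts, by the root mean square difference of centred log2 values over the 6 libraries. For Atp2b2 these were Dynlrb2, a dynein light chain gene (0.0918), Chrna9, a subunit of the acetylcholine receptor of HCs (0.101), Xirp2, an actin-binding protein of stereocilia (0.112), Col12a1 (0.115) and Acot7 (0.118). Because these 5 were chosen for their likeness to Atp2b2, which itself fell, their direction was set by the choice and bears no weight. All 5 were called lower, with log2 fold changes from -0.88 to -0.75, though Dynlrb2 was not called among males alone (-0.75). Like Atp2b2, all 5 lost their call when the test asked whether the fold change itself exceeds 1.5 (DESeq2 adjusted p = 1). For Atp2b3 the nearest were C1qtnf9, Ptgfrn, Tnfaip2 and Rab32, at distances of 0.157 to 0.205, and none was called.

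Atp2b1 and Atp2b4 had profiles that many genes shared. The nearest to Atp2b1 were Ndufb6, Emsy, Pold4, Sh2d4a and RGD1311739 (0.0261 to 0.0403), and to Atp2b4 Wdr53, Paxip1, Col4a3bp, Ushbp1 and Brat1 (0.0276 to 0.0727). Within a distance of 0.2 lay 3517 genes for Atp2b1 and 975 for Atp2b4, against 71 for Atp2b2 and 2 for Atp2b3. Because values were centred, a gene that varied little between libraries lies near all others that varied little. The counts therefore do not measure a shared regulation.

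**Figure D5:**
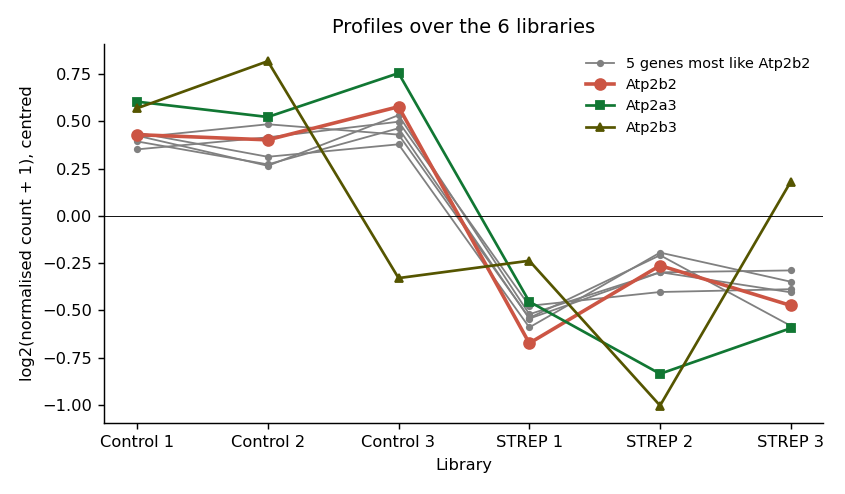
Centred log2(normalised count + 1) (vertical axis) in the 6 libraries (horizontal axis) for Atp2b2, the 5 genes with the most similar profile, Atp2a3 and Atp2b3. Atp2b2 and its 5 nearest genes are above 0 in the 3 Control libraries and below 0 in the 3 STREP libraries, whereas Atp2b3 is below 0 in the Control female and above 0 in the STREP female.

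Markers of the cells that the tissue could hold were read beside the pumps. Of the 8 genes found on the list for type I HCs, the cells in which the study places PMCA2, 7 were called lower, with a median of -1.14. Those 7, AC132671.2, Adam11, Bdnf, Bmp2, Chgb, Fbxw7 and Kcnab1, are all genes that the study chose because they fell in these samples among others, so their direction was set by the choice and bears no weight. Spp1, the only gene found that was taken from elsewhere, was not called. Kcnab1 lost its call without Control replicate 1 or STREP replicate 1 (-0.57 and -0.60). The list sum overlapped between groups, at 313021 to 411860 normalised counts in Control and 179412 to 326394 in STREP animals. Most of this sum was Spp1, at 245715 to 344687 in Control and 158817 to 308181 in STREP animals, which itself overlapped. The 7 genes chosen by the study each showed no overlap, as did 8.63% of all tested genes with STREP lower. This too bears no weight, because of how the 7 were chosen. The 3 type II HC markers had 0 calls and a median of 0.04.

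Among the 11 markers of all HCs, 1 was called lower and 1 higher, with 9 below 0 and a median of -0.21, and the mean of their sum fell by 10.4%. Strc, which encodes stereocilin of the hair bundle, was lower (-1.35) and Gfi1, a transcription factor gene, higher (1.20). Strc lost its call with edgeR (-1.34, adjusted p = 0.153) and without any 1 of Control replicates 1, 2 and 3 or STREP replicate 1 (-1.46 to -1.17).

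The 6 neuron and axon markers, relevant to Atp2b3, had 0 calls and a median of -0.23, with 4 below 0. Their sums did not overlap, at 3115 to 3729 in Control and 2799 to 2985 in STREP animals. Of single tested genes, 17.8% showed no overlap. Nefl and Nefm held most of these reads, and each of them overlapped between groups. Schwann cell markers summed to 243677 to 338519 in Control and 128287 to 271789 in STREP animals, with overlap. All 6 Schwann cell markers were below 0, with a median of -0.51. Of them only Prx, a myelin gene, was called (-0.68), and it was not called with edgeR (-0.68, adjusted p = 0.198) or in 5 of the 6 fits without 1 animal. The 8 supporting cell markers had 0 calls and a median of 0.23. Macrophage, dark cell, melanocyte, fibroblast, endothelial and red blood cell markers also had 0 calls, with medians of 0.17, -0.38, -0.96, -0.27, 0.10 and -0.40, and every listed marker found in the table had counts. The melanocyte sum was higher by 21.3% in STREP animals although its median was negative. The part of the cell makeup in the change of Atp2b2 was not tested.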

How the data were processed

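Libraries were made from total RNA with the SMART-seq2 protocol and sequenced as paired-end reads of 76 bases. Per the labels, the authors used STAR 2.5.3a and RSEM 1.3.0. The study's methods name the genome Rnor6.0 with its Ensembl gene annotation. The deposited table holds expected counts per gene, not scaled between libraries, all of them whole numbers. RSEM divides reads among similar genes, so related genes can share reads.

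Groups came from the treatment labels, and replicate numbers only name the animals, in sample order within a group. Where nothing else is said, the spread is that between animals. The counts of all genes entered 1 DESeq2 1.42.0 Wald test (R 4.3.3), with group as the only factor. The study's methods name DESeq2 and the same thresholds without a model formula. The study lists Atp2b3, Myo7a and Lhfpl5 as lower in streptomycin rats, whereas none of them was called here. For the symbol Atp2b3 it names the protein SERCA2, although Atp2b3 encodes PMCA3, so which gene was meant is not certain. The cause of this difference was not tested. Intervals are 95% Wald intervals. Ratios were compared with exact two-sided permutation tests. edgeR 4.0.16 quasi-likelihood tests, other scalings and filters, sex as a covariate, males alone and the omission of each animal were alternatives. The procedure was tested on simulated data. No molecular identifiers mark single molecules, and 3 counts, the detection floor, came to 0.0501 to 0.102 CPM across libraries (counting error only). Per-length levels and protein sequences were not analysed here.

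The members and gene lists were chosen with earlier results of these data known. Atp2b2, Xirp2 and Ocm2 are also among the genes that the study picked out in these samples. Pvalb, Lhfpl5, Myo7a and Atp2b3 are on its list of genes lower after both streptomycin and a second toxic compound. The direction of these genes here is thus not an independent result. Genes named besides the pumps were, in each pathway list, those called and the 3 with the highest mean, in each cell marker list those called, the 5 most similar in profile to each pump, and Myo7a. Some genes that this rule names are not reported here, though list counts and medians include them. Nptn and Atp10a were added after their values were seen.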

Additional observations from a re-analysis of the deposited data

How the results depend on the processing

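Atp2b2 kept its direction in every fit and its call in all but one: when the Wald test took 1.5-fold as its null limit, its log2 fold change of -0.93 was not called. With each animal left out it ranged from -1.05 to -0.84. Atp2b1 ranged from -0.20 to -0.032 and was 0.0024 among males alone, Atp2b3 ranged from -1.01 to -0.45 and Atp2b4 from 0.022 to 0.33, none called in any fit. The number of genes called over the whole table was 527, but 264 with edgeR and a count filter, 295 with edgeR and no filter, 309 with library totals as size factors and 82 with the 1.5-fold limit as the null, where of 25 other named genes called here 7 stayed called (Atp2a3, Tmc2, Ocm2, Pvalb, Adam11, Bmp2 and AC132671.2). The difference in the Atp2b2 to Atp2b3 ratio was 0.43 among males alone and ranged from -0.66 to 0.16 across omissions of 1 animal. For these settings, the cause was not tested. Values of named genes other than the pumps were read off the same fits, a choice made after seeing the data. Among those not called, males alone gave 0.066 for Atp2a2 and -0.14 for Atp1b3, and library totals -0.0099 for Atp13a2. Library totals also ended the calls of Slc24a1, Cib2, Strc and Prx. With 1 animal left out, the ranges that crossed 0 were -0.25 to 0.086 for Bsg, -0.18 to 0.075 for Nptn, -0.21 to 0.0053 for Atp2a2, -0.23 to 0.098 for Slc8b1, -0.095 to 0.022 for Stim1, -0.53 to 0.23 for S100b, -0.91 to 0.16 for S100a1, -0.13 to 0.31 for Atp1b3, -0.29 to 0.052 for Atp11a, -0.057 to 0.12 for Atp13a2 and -0.038 to 0.21 for Brat1. No paired analysis was possible because the labels share no replicate number between the groups. The titles of STREP replicates 1 and 2 share the first part of an animal code, whose meaning the labels do not give. Atp2b3 had as few as 75 reads in a library.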
